A study of Mus musculus with 2 samples.

Results

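Collagen genes were compared between wounds of beta-catenin knockout mice and wounds of their littermate controls. The members were all probes of the non-normalized table whose gene symbol begins with Col, a number, the letter a and a number. This pattern found 59 of 25697 probes. It took in 3 probes of Col4a3bp, which encodes a ceramide transfer protein and no collagen, and these stayed out of every count. The remaining 56 probes stood for 36 collagen genes, of 17876 genes on the array. The knockout mice carried b-catenin fl/fl alleles and a Cre driven by keratin 14 (K14), which removes beta-catenin, a cell adhesion protein and the transcriptional partner of the Wnt pathway, from keratinocytes that express keratin 14. The controls were b-catenin fl/fl littermates, for which the labels name no Cre. All mice were C57BL6, 3 months old and on a low calcium diet. Each received 2 full-thickness wounds of 6 mm on the back, and an 8-mm punch of the wounded skin was taken 3 days later. Each group was 1 Illumina bead array of total RNA pooled from 3 mice, so there was no replicate array, no test was possible and no difference below has an error estimate. Wound bed, wound edge and adjoining skin were measured together, and fewer cells of a type cannot be told apart from less RNA per cell.

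Collagens are secreted or membrane-bound proteins of alpha chains wound into a triple helix. Fibrillar collagens, made mostly by dermal fibroblasts, give skin its tensile strength and are laid down in the granulation tissue of a healing wound. Type IV collagen forms the sheet of basement membranes under the epidermis and around vessels, muscle fibres, fat cells and nerves. Anchoring fibrils of type VII collagen and the transmembrane type XVII collagen of hemidesmosomes fasten basal keratinocytes to the dermis. FACIT collagens, whose triple helices are interrupted, sit on the surface of fibrils, and type VI collagen forms beaded filaments around cells. Most collagen genes are expressed mainly by fibroblasts and other dermal cells, which the keratin 14 promoter does not target.

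A probe counted as detected where its raw intensity reached 177.9 in the knockout array or 181.8 in the control array, the lowest intensities at which fewer than 1% of negative control beads were as bright. By this rule 24 of the 36 collagen genes, with 31 probes, were detected on at least 1 array, and 22 of them on both. Each gene was read from its brightest probe. Values below are background-corrected normalized intensities unless stated, folds are knockout over control on the log2 scale, and levels of different probes are not comparable. Raw intensities of all probes ran from 120.4 to 40969.4 in the knockout array and from 118.5 to 40798.1 in the control array. Keratinocyte and fibroblast markers of skin were present on both arrays: all 5 basal keratinocyte markers and all 7 fibroblast markers were detected. Of the 6 slow-fibre skeletal muscle markers, 5 stood 1.5-fold or more above the control, where 3.51% of all detected genes did. The other, Myh7, was undetected in the control and stood at least 1.11-fold above it. The summed normalized intensities of the 6 were 15610 in the knockout and 1956 in the control. General and fast-fibre skeletal muscle markers, 7 of 7 detected, had a median log2 fold of 0.10, with 4 above 0 and 3 below. Their sums were 104501 in the knockout and 102756 in the control. The part of the slow-fibre difference in the collagen values was not tested.

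Beta-catenin acts on target genes through T-cell factors. One form of their binding core reads TCAAAG or, on the other strand, CTTTGA. These letters were searched on both strands in the 250 bases before the annotated start (RefSeq, GRCm38.p6), where the table used held a window for 19 of the 24 detected collagen genes. This form was found in 4 of the 21 windows of these genes (19.0%), each of a different gene, against 13.8% of all 32851 windows in the table. Other forms of the core were not searched, so a window without these letters may hold another form. A match is a run of letters and no shown binding site. The windows with a match are printed 5′ to 3′ because beta-catenin is the deleted gene, and capitals mark the match.
Col5a3, GRCm38.p6 chr9:20815068-20815317, - strand: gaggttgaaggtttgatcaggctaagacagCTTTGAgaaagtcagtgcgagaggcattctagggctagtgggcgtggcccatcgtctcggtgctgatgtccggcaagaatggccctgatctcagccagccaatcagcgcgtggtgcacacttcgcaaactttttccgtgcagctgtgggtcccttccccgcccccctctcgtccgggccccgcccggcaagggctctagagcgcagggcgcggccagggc
Col15a1, GRCm38.p6 chr4:47207762-47208011, + strand: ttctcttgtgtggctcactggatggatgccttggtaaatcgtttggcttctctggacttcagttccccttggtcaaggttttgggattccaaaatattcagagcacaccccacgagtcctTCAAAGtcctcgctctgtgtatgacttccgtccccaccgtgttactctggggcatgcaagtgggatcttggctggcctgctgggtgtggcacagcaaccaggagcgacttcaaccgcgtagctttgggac
Col6a1, GRCm38.p6 chr10:76726045-76726294, - strand: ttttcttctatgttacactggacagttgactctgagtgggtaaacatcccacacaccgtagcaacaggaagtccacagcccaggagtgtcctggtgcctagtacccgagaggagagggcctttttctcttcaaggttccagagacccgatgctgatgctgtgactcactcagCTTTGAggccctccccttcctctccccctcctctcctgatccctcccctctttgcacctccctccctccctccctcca
Col6a2, GRCm38.p6 chr10:76623631-76623880, - strand: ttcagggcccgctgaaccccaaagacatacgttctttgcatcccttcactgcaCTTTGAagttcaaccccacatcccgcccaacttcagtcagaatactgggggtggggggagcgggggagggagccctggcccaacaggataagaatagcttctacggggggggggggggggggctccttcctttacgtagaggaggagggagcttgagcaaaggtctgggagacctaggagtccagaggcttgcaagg
Their transcripts read 0.26 (Col5a3), 0.09 (Col15a1), 0.04 (Col6a1) and 0.31 (Col6a2) in log2 fold, all above 0, as were most collagen genes, but under median scaling of the arrays Col15a1 (-0.04) and Col6a1 (-0.03) lay below 0, as did 14 of the 24 collagen genes. Another promoter element, CCAAT or, on the other strand, ATTGG, had been searched first. It was found in 9 of the 21 windows (42.9%), against 33.8% of all windows.

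Collagen transcripts differed little between the knockout array and the control array, and so did most detected genes. Less than 1.2-fold apart were 16 of the 24 collagen genes and 6183 of the 9713 detected genes. By their brightest probe, none of the 24 detected genes stood 1.5-fold or more above the control, where 3.51% of all 9713 detected genes were. The basement membrane chain Col4a4 was the 1 gene that stood 1.5-fold or more below it, where 4.48% of all detected genes were. No collagen gene reached 2-fold in either direction, against 0.597% of all detected genes for higher and 0.607% for lower. The log2 folds ran from -0.75 (Col4a4) to 0.49 (Col24a1), with 16 genes above 0 and 8 below. With median scaling in place of quantile normalization, which moved the median of all detected genes to -0.10, 10 lay above 0 and 14 below, and 15 lay above that median. Under quantile normalization the collagen median was 0.08, beside 0.00 for all detected genes, whose quartiles were -0.19 and 0.18. At the smaller size of 1.2-fold, 6 collagen genes were higher (Col1a2, Col5a2, Col6a2, Col8a2, Col23a1 and Col24a1), where 17.1% of all detected genes were, and 2 were lower (Col4a4 and Col4a5), where 19.3% were. This size was chosen after the values were seen and the counts depend on it: at 25% (knockout over control, or its inverse), 2 were higher (12.8% of all detected genes) and 2 were lower (14.9%). Of the 2 higher ones, Col24a1 and Col8a2, Col8a2 was detected on 1 array and was bounded at 1.22-fold, under that size. Dim genes made up 5 of the 8 (mean normalized intensity under 200), which is 62.5% of the 8 dim collagen genes, beside 52.5% of all dim detected genes. The 16 collagen genes at or over that intensity lay between -0.18 and 0.31, and 3 of them (18.8%) were 1.2-fold apart, beside 28.1% of all detected genes of that intensity. At 25% none of these 16 was, beside 19.8%, and 4 of the 8 dim genes were, beside 43.0%.

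**Figure D1:**
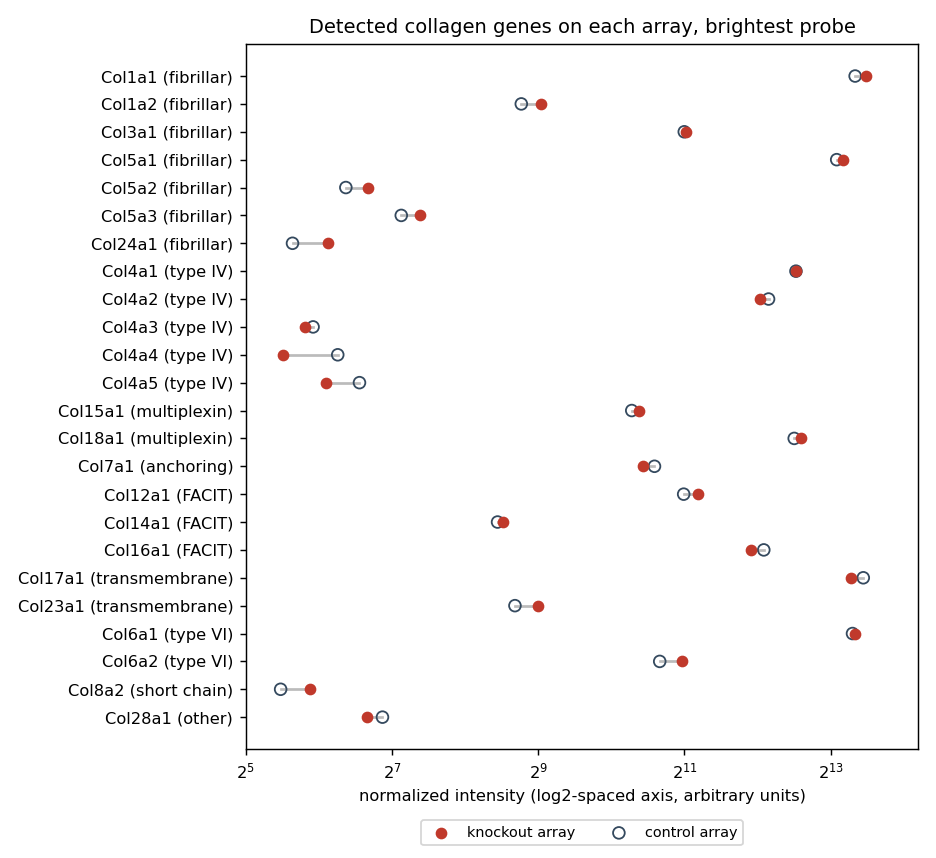
Normalized intensity (log2-spaced horizontal axis, arbitrary units) of the brightest probe of the 24 detected collagen genes, with the knockout array as filled red points and the control array as open points joined by a line. The points of most genes nearly touch, and the longest lines belong to genes of low intensity such as Col4a4 (45.6 in the knockout, 76.5 in the control) and Col24a1.

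With 1 array per group, the only spread that could be measured was that between probes of one gene. Over all 2387 genes with 2 or more detected probes, the log2 folds of the brightest probe and the next differed by a median of 0.19, and by up to 0.55 for 90% of them. This spread comes from the same RNA pools and holds nothing of the difference between mice. Of the 24 collagen genes, 11 lay further from 0 than 0.19. The quartiles of all detected genes were -0.19 and 0.18, so a similar share of all genes lay as far out. Only 1 collagen gene, Col4a4, lay further than 0.55. At the slightly larger size of 1.5-fold (0.585 in log2), 3.51% of all detected genes were higher and 4.48% were lower.

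All 7 detected fibrillar genes lay above 0, with a median of 0.26, and none reached 1.5-fold. Col1a1, the alpha1 chain of type I collagen and the main fibril protein of dermis, read 11414 in the knockout and 10327 in the control, a log2 fold of 0.14. Col1a2, its partner chain, read 527 in the knockout and 436 in the control (0.27). Both type I chains were thus slightly higher in the knockout array, and their folds differed by 0.13, less than the median difference between probes of one gene. Col3a1, the type III chain abundant in early wounds, read 2079 in the knockout and 2044 in the control (0.02), and its other probe read 650 in the knockout and 687 in the control (-0.08). The 2 probes of Col3a1 fell on either side of 0.

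Type V collagen starts the assembly of type I fibrils and limits their width. Its main chain Col5a1 read 9194 in the knockout and 8670 in the control (0.08). Col5a2 read 102 in the knockout and 82.6 in the control (0.31), and Col5a3 read 167 in the knockout and 140 in the control (0.26). The last of the fibrillar genes, Col24a1, is known mainly from bone and cornea, and it stood near the detection limit with 70.0 in the knockout and 49.8 in the control (0.49). With the background kept, as in the authors' normalized intensities, Col24a1 was 191.4 in the knockout and 174.3 in the control, a 1.10-fold difference. The fibrillar median there was 0.14, with 7 of 7 genes still above 0. With median scaling in place of quantile normalization 5 of 7 lay above 0, and 6 of 7 above the median of all genes under that scaling.

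**Figure D2:**
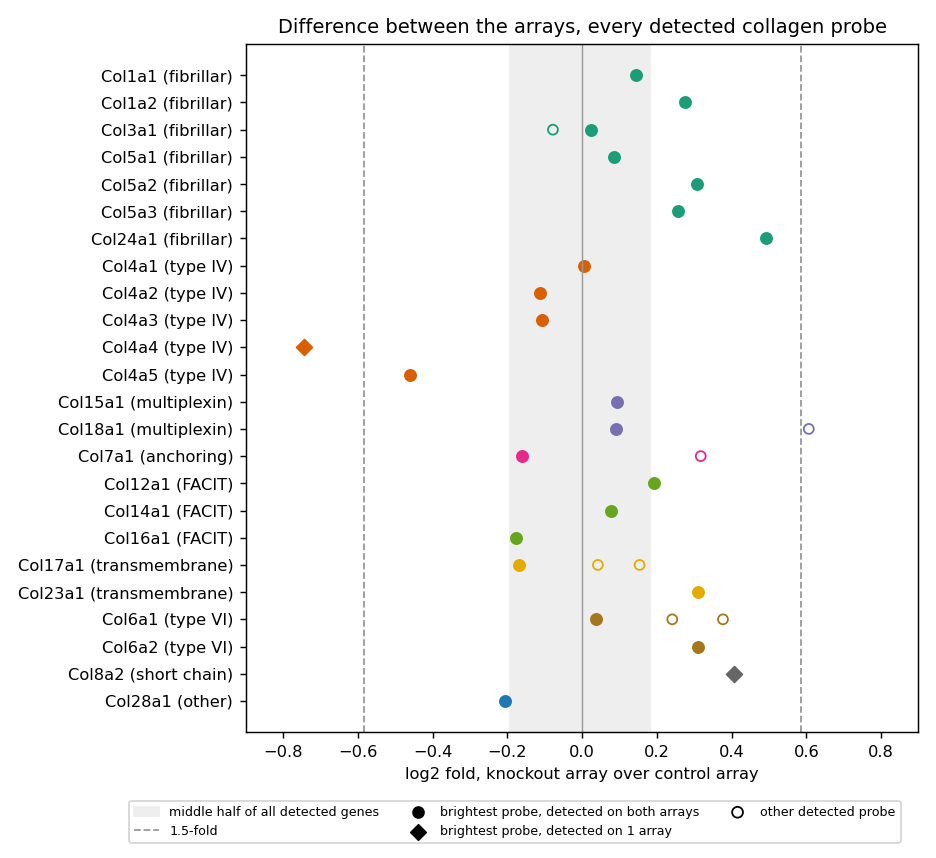
Log2 fold (knockout over control) of all 31 detected collagen probes, by gene and class, with filled symbols for the brightest probe, open circles for other probes and diamonds for genes detected on 1 array. The grey band spans the quartiles of all detected genes and the dashed lines mark 1.5-fold; the 7 fibrillar genes lie right of 0, 4 of 5 type IV genes lie left of it, and Col4a4 alone among brightest probes lies past a dashed line.

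Type IV collagen went the other way in 4 of its 5 detected chains, with a median of -0.11, and under median scaling all 5 lay below 0, 1 of them above the median of all genes. Col4a1 and Col4a2, the chains of the common network found in nearly all basement membranes, lie next to each other in the genome on opposite strands. Col4a1 read 5908 in the knockout and 5892 in the control (0.00), and Col4a2 read 4199 in the knockout and 4544 in the control (-0.11), so that the pair differed by 0.12. Col4a3, Col4a4 and Col4a5 together form a network best known from kidney, and Col4a5 is also found in the epidermal basement membrane with Col4a6. Col4a5 read 68.4 in the knockout and 94.0 in the control, a log2 fold of -0.46. Col4a3 read 56.2 in the knockout and 60.5 in the control (-0.11), 1.02-fold in the authors' intensities. Both genes stood near the detection limit. Raw intensities were 195.1 in the knockout and 232.2 in the control for Col4a5, and 183.8 and 195.4 for Col4a3. Of the chains below 0, Col4a2 alone stood far above the limit.

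Col4a4 was detected in the control only, with raw intensities of 174.7 in the knockout and 212.6 in the control, and normalized values of 45.6 in the knockout and 76.5 in the control. It was lower in the knockout by at least 1.55-fold, measured against the lowest detected value there. Its raw value in the knockout lay close under the limit of 177.9. In the authors' normalized intensities the same probe was 170.9 in the knockout and 196.8 in the control, a 1.15-fold difference, and its second probe was detected on neither array. The call thus rests on 1 dim probe and is absent in the authors' intensities, where Col4a5 also stood at 1.12-fold. Col4a6 was detected on neither array with any of its 3 probes.

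Of the other collagens of the basement membrane zone, the multiplexins Col15a1 and Col18a1 stood at the same small distance above 0, although under median scaling Col15a1 stood at -0.04 and Col18a1 at 0.03. Col15a1 read 1325 in the knockout and 1242 in the control (0.09). Col18a1, the source of the vessel-growth inhibitor endostatin, read 6170 in the knockout and 5796 in the control (0.09). Its second detected probe read 275 in the knockout and 181 in the control (0.61). This probe was 1.52-fold higher, past the 1.5-fold size, but 1.30-fold in the authors' intensities. Another Col18a1 probe was not detected on either array. The probes of this gene disagreed more than those of any other collagen gene, by 0.52.

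Keratinocytes, the cells in which beta-catenin was deleted, make the collagens that fasten the epidermis. The punch also held other cells, so the values below are not of keratinocytes alone. Col7a1, the chain of anchoring fibrils, read 1378 in the knockout and 1541 in the control (-0.16). Its other probe read 66.3 in the knockout and 53.2 in the control (0.32). That probe stood near the detection limit and was 1.06-fold in the authors' intensities. Col17a1, the hemidesmosome collagen also known as bullous pemphigoid antigen BP180, had 3 detected probes. They read 9915 in the knockout and 11155 in the control (-0.17), 9504 in the knockout and 8544 in the control (0.15), and 4601 in the knockout and 4468 in the control (0.04). For both genes the probes fell on either side of 0, so no direction can be given. Basal keratinocyte markers had a median of -0.00, with 2 of 5 above 0. They ran from -0.46 for Trp63, a transcription factor of basal cells that read 3718 in the knockout and 5112 in the control, to 0.14 for Krt5, a keratin that read 12171 in the knockout and 11016 in the control.

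Another transmembrane collagen, Col23a1, which basal keratinocytes also make, read 509 in the knockout and 410 in the control (0.31). The remaining transmembrane genes, Col13a1 with 1 probe and Col25a1 with 5 probes, were detected on neither array.

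Among FACIT collagens, Col12a1 read 2324 in the knockout and 2032 in the control (0.19). Col14a1 read 367 in the knockout and 348 in the control (0.08). Col16a1, found near fibrils and basement membranes in skin, read 3842 in the knockout and 4343 in the control (-0.18). The FACIT median was 0.08 over these 3 genes, and their signs differed. Under median scaling Col14a1 stood at -0.06.

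Type VI collagen was represented by 2 of its chains, both above 0. Col6a1 had 3 detected probes, which read 10344 in the knockout and 10072 in the control (0.04), 5279 in the knockout and 4466 in the control (0.24), and 123 in the knockout and 94.7 in the control (0.38). Col6a2, its partner in the heterotrimer and its neighbour in the genome, read 2008 in the knockout and 1619 in the control (0.31). All 4 probes of type VI collagen lay above 0, at most 1.30-fold apart. Under median scaling the brightest Col6a1 probe stood at -0.03, still above the median of all genes there, which was -0.10.

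The short-chain collagen Col8a2, known from the basement membrane of corneal endothelium and from vessels, passed the detection limit in the knockout alone, with raw intensities of 186.5 in the knockout and 177.3 in the control. It was higher there by at least 1.22-fold after background correction. In the authors' intensities, with the background kept, it was 181.8 in the knockout and 170.0 in the control, a 1.07-fold difference. Col28a1, known from peripheral nerve, read 101 in the knockout and 117 in the control (-0.21). Schwann cell and nerve markers (3 of 4 on the array) were detected as well, with a list median of 0.14. Neither Col8a2 nor Col28a1 has a second probe.

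**Figure D3:**
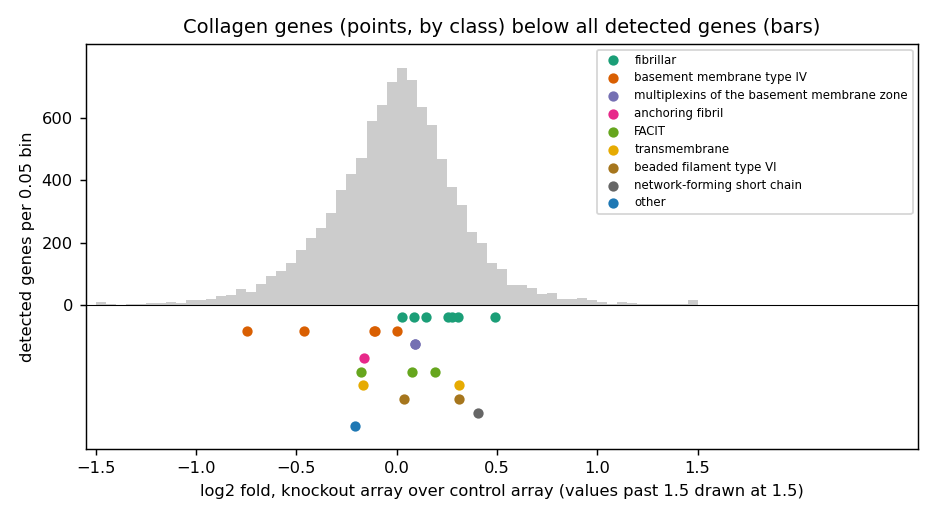
Number of detected genes per 0.05 bin of log2 fold (knockout over control; bars, with values past 1.5 drawn at 1.5) and, below the zero line, the 24 collagen genes as points in a row per class. The collagen genes run from -0.75 (Col4a4, at percentile 2.2 of all detected genes) to 0.49 (Col24a1, at percentile 94.6).

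The 12 undetected collagen genes included the chains of cartilage. These were Col2a1, Col9a1, Col9a2, Col9a3, Col10a1, Col11a1 and Col11a2, and with them Col4a6, Col13a1, Col19a1, Col25a1 and Col27a1. Their 23 probes had raw intensities between 134.3 and 173.8 on the 2 arrays. Of 6 cartilage markers, 5 (Acan, Comp, Matn1, Matn3 and Hapln1) were undetected too, and Sox9, which hair follicles also express, was the exception. Of the chains listed for the classes, Col6a3, Col6a4, Col6a5, Col6a6, Col8a1, Col20a1, Col21a1 and Col22a1 were not analysed here. Col26a1, listed under its old symbol Emid2 and so outside the pattern, was undetected, with raw intensities of 153.7 in the knockout and 174.6 in the control.

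Markers of cell types in the wound were set beside these values. Fibroblast markers had a median of -0.20, with 5 of 7 below 0 and summed normalized intensities of 40565 in the knockout and 46157 in the control. They ran from -0.53 for the proteoglycan Lum, which read 7420 in the knockout and 10730.5 in the control, to 0.28 for the microfibril protein Mfap5, which read 2303 in the knockout and 1902 in the control. Of the others, Fbln1 stood above 0 (0.19), and Pdgfra, Dcn, Thy1 and Dpt stood below it. Under median scaling 3 of the 7 lay above the median of all genes. Smooth muscle and pericyte markers had a median of 0.07, with 5 of 6 detected members above 0 (3 of 6 under median scaling) and sums over these 6 of 29775 in the knockout and 26395 in the control. Endothelial markers, whose cells make type IV collagen, had a median of 0.34, with 4 of 4 detected members above 0 (3 of 4 under median scaling) and sums over these 4 of 1714 in the knockout and 1426 in the control. Adipocyte markers had a median of -0.25, with 3 of 4 detected members below 0. Macrophage markers had a median of -0.15, with 4 of 4 below 0. Of 4 red blood cell markers, 3 stood 1.5-fold or more below the control, where 4.48% of all detected genes did. Their sums were 6354 in the knockout and 21867 in the control. The part of these differences in the collagen values was not tested.

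Genes that act on collagen were listed apart, in 6 lists with 54 genes, of which 50 were on the array and 39 were detected. None was at least 1.5-fold higher, where 3.51% of all detected genes were, and 2 were at least 1.5-fold lower (5.13%), where 4.48% were. Their median was 0.14, with 25 above 0 and 14 below. Under median scaling 21 lay above 0, and 28 above the median of all genes.

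Enzymes and chaperones of hydroxylation, folding and secretion had a median of 0.17, with 11 of 14 above 0. The lysyl hydroxylases Plod2 and Plod1, which prepare collagen for crosslinks, read 259 in the knockout and 173 in the control (0.58) and 582 in the knockout and 411 in the control (0.50). The prolyl hydroxylase subunit P4ha2, needed for a stable triple helix, read 1055 in the knockout and 784 in the control (0.43). Its relative P4ha1 went the other way, with 120 in the knockout and 188 in the control (-0.65), 1.27-fold in the authors' intensities. The prolyl 3-hydroxylase P3h1 stood at 0.51, with its other detected probes at 0.15 and 0.46. The collagen chaperone Serpinh1 (0.16) and the shared subunit P4hb (0.07) lay near the collagens themselves.

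For propeptide removal, 4 of 7 genes on the array were detected, and their median was -0.09. Pcolce2, an enhancer of procollagen C-proteinase, was 1.63-fold lower, with 598 in the knockout and 972 in the control, and its other probe stood at -0.44. It was also past 1.5-fold in the authors' intensities, at 1.55-fold. Adamts2, which removes the N-propeptide of fibrillar procollagens, read 11127 in the knockout and 14219 in the control (-0.35), with all 3 detected probes below 0. The C-proteinase Bmp1 stood at 0.25, with other probes between -0.04 and 0.13, and the related enhancer Pcolce at 0.17.

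Of the crosslinking oxidases, Lox read 5464 in the knockout and 5383 in the control (0.02) and Loxl1 read 8927 in the knockout and 9070 in the control (-0.02), while Loxl2 read 535 in the knockout and 371 in the control (0.53). Collagen receptors had a median of 0.47 over 6 detected genes, and of 0.12 in the authors' intensities. The median of 0.47 takes genes detected in the knockout alone, Mrc2 among them, without their bounds. The endocytic receptor Mrc2 (0.57) passed the detection limit in the knockout alone, where it was higher by at least 1.24-fold, and the integrin chain Itga1 stood at 0.55. Itgb1 stood at 0.53, but its other probe stood at -0.22. Of the proteases, the gelatinase Mmp9, which neutrophils also carry, read 2558 in the knockout and 1711 in the control (0.58), while the membrane-bound Mmp14 stood at 0.14. The interstitial collagenase Mmp13 stood at 0.15, with its other detected probe at 0.50. Neutrophil markers were above 0 in 4 of 4 (median 0.45). Fibril-binding proteins lay below 0 in 5 of 6, with a median of -0.11, but under median scaling 4 of the 6 lay above the median of all genes. The lowest was Lum (-0.53), while the proteoglycan Fmod stood at 0.56 and the glycoprotein Tnxb at -0.23. Lum and Dcn are also among the fibroblast markers above, so the 2 lists are not separate observations. The brightest probe of Sparc stood at -0.12 and its other probe at 0.24.

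**Figure D4:**
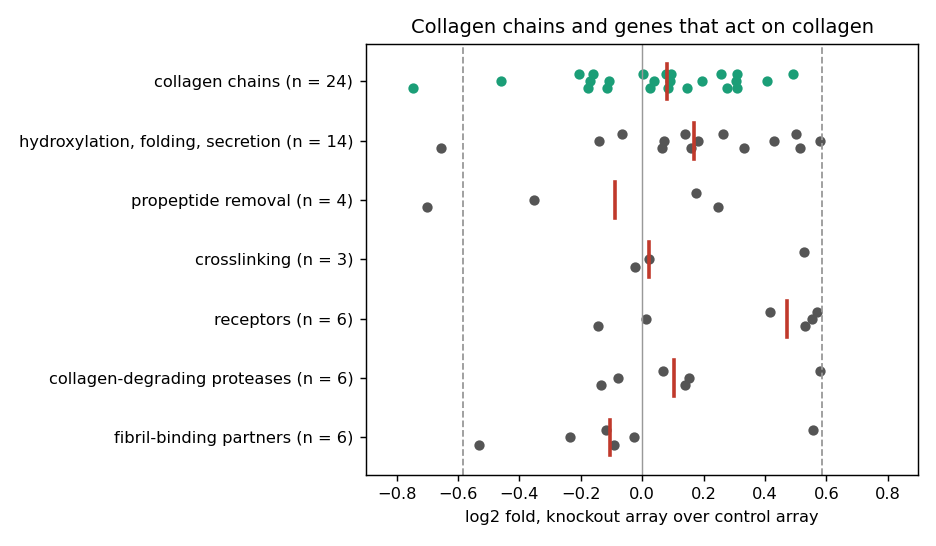
Log2 fold (knockout over control) of the 24 detected collagen genes and of the detected genes in 6 lists of genes that act on collagen; each point is a gene, the red bar is the median of the row and dashed lines mark 1.5-fold. Only P4ha1 and Pcolce2 among the 39 listed genes, and Col4a4 among collagen genes, lie past a dashed line.

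**Figure D5:**
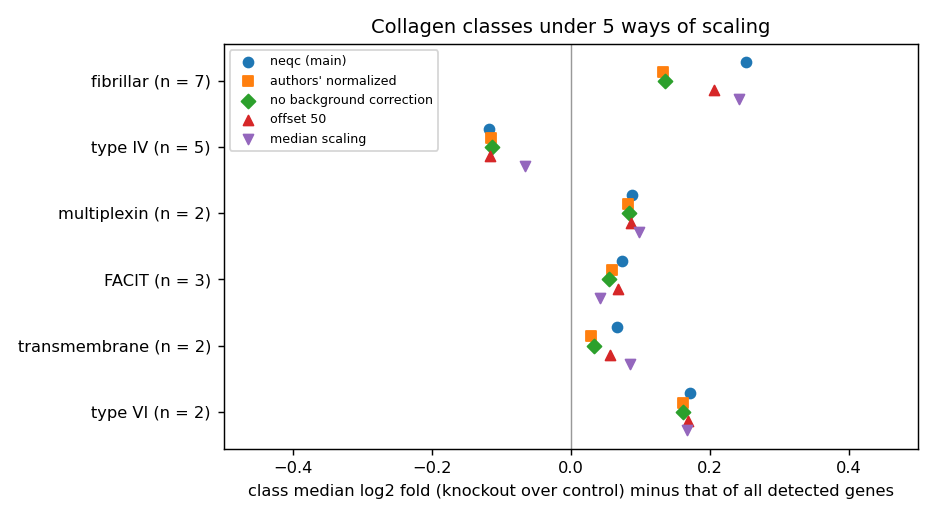
Median log2 fold of each collagen class with more than 1 detected gene, less the median of all detected genes, under 5 ways of scaling the arrays. The fibrillar median stays between 0.13 and 0.25 and the type IV median between -0.12 and -0.07.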

How the data were processed

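Total RNA was labelled with biotin and hybridised to Illumina bead arrays, per the labels' protocols, and GenomeStudio 2011.1 is named in the submitters' processing notes. The authors deposited intensities per probe without normalization and, in a second table, intensities normalized by a method not given in the sources used here, with nearly equal quantiles and the background kept. The deposited detection p-values are not sorted like the intensities they stand beside (rank correlation over all probes -0.0004 in the knockout and 0.0024 in the control), so sorted p-values were given to sorted intensities within each array.

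The neqc function (limma 3.58.1, R 4.3.3) was applied to the raw intensities: normexp background correction, an offset of 16, quantile normalization and log2. Both arrays thus share one distribution, a shift of all genes cannot be seen, and the offset shrinks folds of dim probes. Gene names came from a RefSeq table of GRCm38.p6 (25314 of 25697 probes matched); collagen genes kept the symbols of the file. A fold of a gene detected on 1 array was bounded against the lowest detected value of the other. The procedure was tested on simulated data. The members, classes and lists were chosen with earlier results of these data known. Every detected collagen gene is named; related genes are named at 1.5-fold or, up to 3 per list, by size, and Plod1, P4ha2, Serpinh1, P4hb, Pcolce, Sparc and the markers named were chosen after their values were seen. So were the 1.2-fold and 25% sizes, the split at an intensity of 200, the use of same-gene probe differences as a yardstick and both promoter searches, of which CCAAT came before TCAAAG. The 25% size was used first. The number of arrays limits the precision.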

Additional observations from a re-analysis of the deposited data

How the results depend on the processing

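The absence of collagen genes at least 1.5-fold higher in the knockout array held under all 8 alternatives tried (0 genes in each). All 8 alternatives read the brightest probe of a gene or the mean of its detected probes. None could count the second detected Col18a1 probe on its own, which was 1.52-fold higher. The count of 1 lower gene, Col4a4, became 0 in the authors' normalized intensities, without background correction, with an offset of 50 and with genes detected on both arrays only. The last leaves Col4a4 out by construction, and the others shrink differences of dim probes. The others also cut the share of all detected genes at least 1.5-fold lower. It was 4.48% in the main setting and became 0.77%, 0.73% and 1.82%, in the order named. Under median scaling it was 7.09%, while the collagen count stayed at 1. Median scaling moved the median of all detected genes to -0.10, and that of the collagen genes to -0.04, which is 0.07 above it; 6 of 24 collagen genes changed sign. Taking the mean of detected probes changed the sign of 3 genes, and the other alternatives of none. Medians of classes with more than 1 detected gene moved by less than 0.19, the median difference between probes of one gene, under every alternative. Of classes with 1 gene, the short-chain class (Col8a2) moved more, to 0.10 in the authors' table and 0.12 without background correction, against 0.41, and the anchoring fibril class (Col7a1) moved to 0.08 with the mean of its probes, against -0.16. The counts past 1.2-fold, a size added after seeing the data, were unstable. The share of all detected genes past that size is given for the main setting only. No change particular to collagen genes can therefore be read from these counts. The 6 higher genes became 1 without background correction and in the authors' table, 2 under median scaling, 3 with an offset of 50 and 2 at a size of 25%. The 2 lower genes became 0 without background correction and in the authors' table, 4 under median scaling and 1 with genes detected on both arrays only. No paired analysis was possible because each group is 1 array, and no replicate could be left out. Dim probes limit the result: 8 of the 24 detected collagen genes had a mean normalized intensity under 200.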
